A study of Mus musculus with 4 samples.

Results

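The cytochrome P450 genes described here are the gene names in the table of loci that consist of Cyp, a family number, the subfamily letters and a gene number, such as Cyp2e1. They were chosen by name alone, with no measured value. The choice held 92 of the 22479 gene names in the table, and each of the 92 had a row of its own. Cyp51, the sterol demethylase whose name carries no subfamily letter, was not a member. Poly(A) RNA from whole mammary tissue of virgin mice at 2 months of age was sequenced, from 2 miR-21+/+ mice and 2 miR-21-/- mice, all of the strain labelled 129SV::FVB/N::C57BL/6. The miR-21-/- mice carried the deletion of the microRNA gene in the whole animal, so no difference can be assigned to a cell type of the gland by genotype. Levels are given in FPKM (fragments per kilobase of transcript, scaled to the number of mapped fragments), which takes length into account, so levels of different genes can be set side by side. The authors' table has 1 FPKM value per genotype, with the 2 mice combined. Where a pair of levels is given for a gene, the miR-21+/+ value comes first. With 1 value a genotype the differences have no replicate check, and no test was made.

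Cytochrome P450 enzymes are haem proteins that insert an oxygen atom into their substrates, using electrons that in the endoplasmic reticulum come from the reductase encoded by Por and in mitochondria from adrenodoxin (Fdx1). Families with low numbers oxidise drugs, toxins and fatty acids and are best known from the liver, whereas others make or break down bile acids, steroid hormones, vitamin D and retinoic acid. The mammary gland of a virgin mouse is a tree of luminal and basal epithelium inside a large fat pad with a lymph node, and P450 genes are known from both its epithelium and its fat.

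The feature that the encoded proteins share is a short signature around the cysteine that holds the haem iron. The 30 coding bases of this signature are shown for members over a mean of 1 FPKM that differed at least 2-fold between the genotypes. Cyp7b1 was left out, since the exact form of the signature was not found in it. Also shown are a close relative of Cyp3a57 and 2 neighbouring Cyp4f genes that are hard to tell apart by sequence. The codon of the cysteine is in capitals, and the sequences were read from the GENCODE annotation of mm9, 5′ to 3′ on the coding strand.
Cyp2e1: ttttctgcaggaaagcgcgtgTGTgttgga
Cyp2ab1: ttctctgcagggcatcgggtgTGTcctggg
Cyp3a57: tttgggaatggacccaggaacTGCataggc
Cyp3a25: tttggaaatggacccaggaacTGCataggc
Cyp4f16: ttttctgccgggcccaggaacTGCatagga
Cyp4f17: ttttctgctgggcctaggaacTGCatagga
In Cyp2e1 the signature lay at chr7:147959661-147960476 on the plus strand and was split between exons 8 and 9 of 9. In Cyp2ab1 it lay at chr16:20310035-20310164 on the minus strand, across exons 7 and 8 of 8. In Cyp3a57 it lay within exon 12 of 13 at chr5:146147876-146147905 on the plus strand, and in Cyp3a25 within exon 12 of 13 at chr5:146793044-146793073 on the minus strand. The Cyp4f16 signature lay at chr17:32687743-32688013 and that of Cyp4f17 at chr17:32665287-32665674, both on the plus strand and across exons 12 and 13 of 13. The Cyp2e1 and Cyp3a57 signatures differed in 18 of 30 bases and those of Cyp2e1 and Cyp2ab1 in 8. Those of Cyp3a57 and Cyp3a25 differed in 1 of 30 bases, and those of Cyp4f16 and Cyp4f17 in 2. The haem signature, searched by its exact usual form in the annotated coding sequence, was found in 83 of the 91 members with such a sequence. It was found in 91 of 22594 genes of the annotation, or 0.403%. Among members with a mean over 1 FPKM, Cyp20a1, Cyp39a1, Cyp2s1 and Cyp7b1 did not match this exact form.

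Most P450 genes were at or near 0 in the mammary gland. Of the 92 members, 23 had a mean over 1 FPKM, 6 others passed 0.5 FPKM in at least 1 genotype, and 36 were at or under 0.5 FPKM in both. Another 9 were listed at 0 in 1 genotype and 18 were listed at 0 in both. Over the whole table, 13636 of the 22479 gene names had a mean over 1 FPKM. Cyp2e1 stood far above all other members. Its level was 1270.75 FPKM in miR-21+/+ against 402 in miR-21-/-, which was 86.4% and 64.7% of the FPKM summed over all members. The next member by mean level, Cyp4b1, was at 36.1 and 30.4 FPKM, so that Cyp2e1 was 35.2 times and 13.2 times as high. Summed over the 92 members, the level was 1470 FPKM in miR-21+/+ against 622 in miR-21-/-. Without Cyp2e1 the sums were 199.6 and 219.6, a log2 ratio of 0.14.

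**Figure D1:**
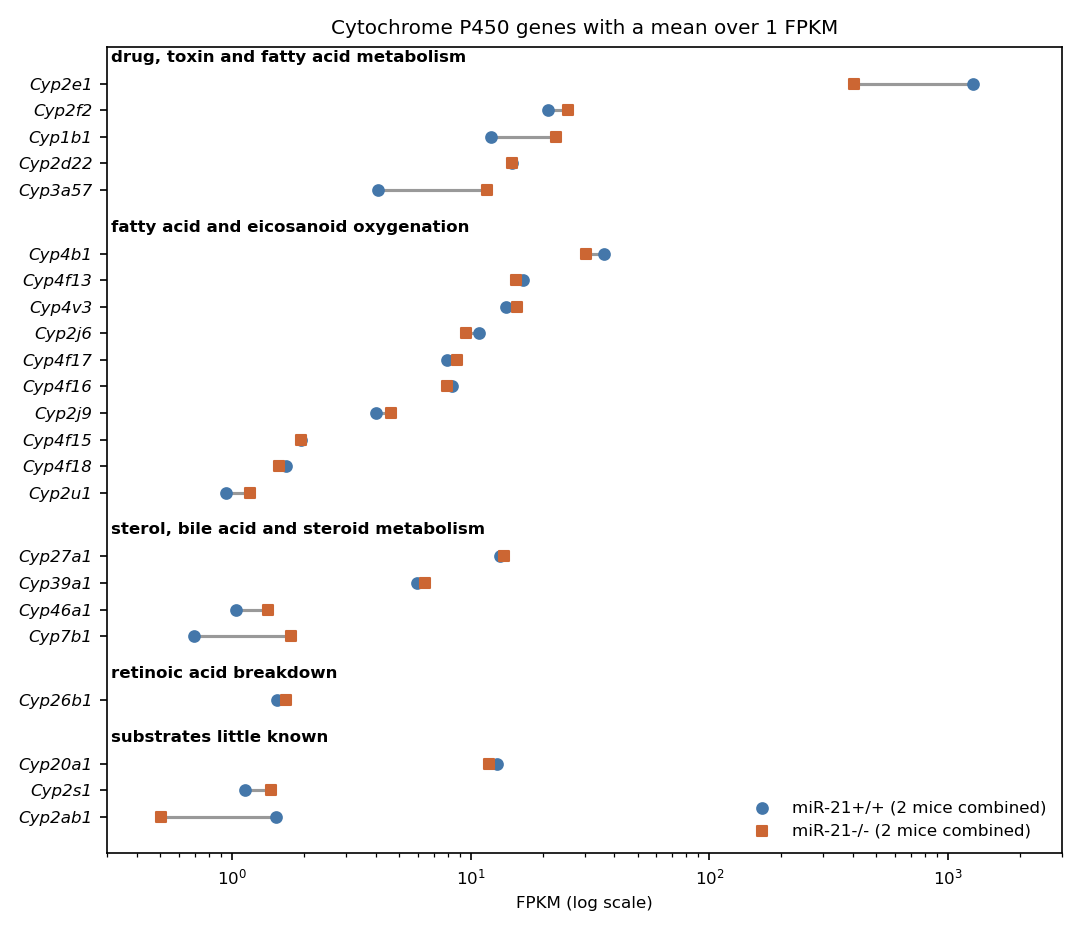
FPKM in miR-21+/+ (circles) and miR-21-/- (squares) on a log axis for the 23 cytochrome P450 genes with a mean over 1 FPKM, grouped by role, each point being the authors' value for 2 mice combined. Cyp2e1 lies apart at 1270.75 and 402 FPKM, and the other long lines belong to Cyp3a57, Cyp7b1, Cyp2ab1 and Cyp1b1.

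Genotype differences were read as plain ratios among genes with a mean over 1 FPKM. On this scale 14 of the 23 members were higher in miR-21-/- and 9 were lower, with a median log2 ratio of 0.11. Over all 13633 named genes at that level 44.4% were higher and the median was -0.03. At least 2-fold higher were 2 members, Cyp3a57 and Cyp7b1, or 8.70% of the 23, against 1.65% of all named genes. At least 2-fold lower were 2 members, Cyp2e1 and Cyp2ab1, again 8.70%, against 2.09% of all named genes. Small differences were the rule. Of the 23 members, 18 differed by less than 1.5-fold, which was 78.3% against 89.3% of all named genes. The study's methods used a limit on FPKM in either genotype. With genes over 5 FPKM in either genotype, 14 members were left. Of these, Cyp3a57 alone was at least 2-fold higher, against 1.21% of all named genes, and Cyp2e1 alone at least 2-fold lower, against 1.41%. The signs of small differences depend on the scaling of the columns. With both columns scaled to equal sums over named loci, a log2 shift of 0.10, 16 of the 23 members would be higher and their median would be 0.21. With equal sums over all loci, a shift of -0.63, 3 would be higher (Cyp3a57, Cyp7b1 and Cyp1b1) and their median would be -0.52, beside -0.66 over all named genes. Such a shift is common to all genes, so the members keep their distance from the median of all named genes. Of the 29 members above a mean of 1 FPKM or above 0.5 FPKM in either genotype, 12 would change sign with equal sums over all loci.

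**Figure D2:**
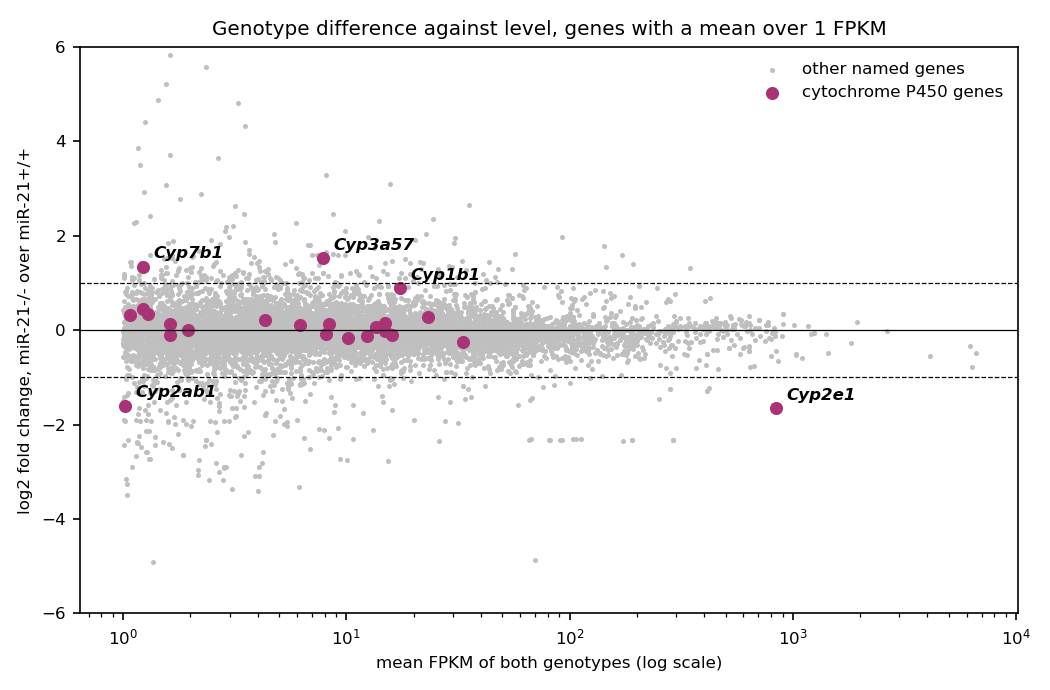
Log2 ratio of miR-21-/- over miR-21+/+ against the mean FPKM of both genotypes (log axis) for all named genes with a mean over 1 FPKM (grey) and the 23 cytochrome P450 genes among them (purple), with dashed lines at 2-fold. Cyp2e1 (-1.66) and Cyp2ab1 (-1.60) lie under the lower line, Cyp3a57 (1.52) and Cyp7b1 (1.35) above the upper line, and Cyp1b1 (0.90) just inside it.

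Cyp2e1, which oxidises ethanol, acetone and other small molecules as well as fatty acids, was the member with the largest difference in FPKM. Its locus in the table (mm9) is chromosome 7 from 147949731 to 147960876. Its log2 ratio was -1.66, a 3.16-fold lower level in miR-21-/-, and it was -2.29 with equal sums over all loci. By level it was the gene ranked 11 of 22479 names in miR-21+/+ and 128 in miR-21-/-. Among the P450 genes that shared the most short stretches with it, the nearest by coding sequence was Cyp2c38, with 66.0% identity. The longest identical run between their transcripts was 17 bases, and the remaining P450 genes were not aligned. In bulk tissue, fewer cells of a type and less RNA per cell cannot be told apart, and cell type markers differed between the genotypes as well. Adipocyte markers had a median log2 ratio of -0.38, with 10 of 12 lower as deposited and 9 with equal sums over named loci, and their summed level was 20719 FPKM in miR-21+/+ against 15850 in miR-21-/-. Brown fat markers had a median of -1.41, with 6 of the 7 over 1 FPKM lower, and summed to 251.8 and 123.3 FPKM. The best known site of Cyp2e1 is the hepatocyte. Of 11 loci with hepatocyte markers 4 were over 1 FPKM, 3 of them lower, and the list summed to 49.3 and 25.1 FPKM. Albumin (Alb) was at 16.6 and 16.99 FPKM and Fgb, a fibrinogen chain, at 26.8 and 3.94, whereas Cps1 was listed at 0 in both and Ttr and Apoa1 did not exceed 0.184. The part of these cell types in the Cyp2e1 difference was not tested.

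The other 4 members of the drug, toxin and fatty acid group with a mean over 1 FPKM were nearly equal or higher in miR-21-/- as deposited, and Cyp2f2 and Cyp2d22 would be lower with equal sums over all loci. Cyp3a57, of the subfamily that metabolises the widest range of drugs and steroids in liver and gut, was at 4.08 FPKM in miR-21+/+ against 11.7 in miR-21-/-, at a locus on chromosome 5 from 146106125 to 146151795. Its log2 ratio of 1.52 was number 71 from the highest of all named genes with a mean over 1 FPKM, and it was 0.89 with equal sums over all loci. Cyp1b1, which hydroxylates oestradiol and polycyclic hydrocarbons outside the liver, was at 12.2 and 22.7 FPKM. Its log2 ratio was 0.90 as deposited, just under 2-fold, and 0.265 with equal sums over all loci. Its locus is on chromosome 17 from 80106180 to 80114381. Cyp2f2, best known from the airway epithelium, was found at 21.001 and 25.5 FPKM, a log2 ratio of 0.28. Cyp2d22 was at 14.9 and 14.8 FPKM and thus nearly equal. Its transcript shared a run of 105 identical bases with that of Cyp2d26, so the division of reads between them is uncertain. Below 1 FPKM on average, Cyp1a1, the classical target of the aryl hydrocarbon receptor, was at 0.746 and 1.03 FPKM. These values are uncertain too, since its transcript shared a run of 137 identical bases with that of Cyp1a2. Of the 46 genes in this group, 15 were listed at 0 in both genotypes. The major Cyp2c genes of the liver were nearly silent, since 11 of 15 members of that subfamily were at 0 in both and the highest, Cyp2c44, was at 0.416 and 0.270 FPKM.

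Cyp3a57 is a member of a subfamily whose genes resemble each other closely. Among the P450 genes that shared the most short stretches with Cyp3a57, the nearest by coding sequence was Cyp3a59, with 94.2% identity. The longest identical run between their transcripts was 87 bases. Cyp3a59 was listed at 0.102 and 0.272 FPKM and Cyp3a25 at 0.0967 and 0.244, so these low values were higher in miR-21-/- too. The read length was not given in the sources used here, and reads may have been divided among these genes, which makes the low values of Cyp3a59 and Cyp3a25 and the exact level of Cyp3a57 uncertain. Cyp3a11, Cyp3a16 and Cyp3a44 were listed at 0 in both genotypes and Cyp3a13 was at 0.0615 and 0.0540 FPKM.

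Genes that oxygenate fatty acids and eicosanoids differed little. Of the 22 members of this group 10 had a mean over 1 FPKM, of which 5 were higher and 5 lower as deposited (6 and 4 with equal sums over named loci, 0 and 10 over all loci), with log2 ratios between -0.24 and 0.33 and summed levels of 104.1 and 99.2 FPKM. Cyp4b1, which hydroxylates short and medium-chain fatty acids, was at 36.1 FPKM in miR-21+/+ against 30.4 in miR-21-/- and had the lowest ratio, -0.24. Cyp2u1, a long-chain fatty acid hydroxylase, was at 0.947 and 1.19 FPKM and had the highest, 0.33. The Cyp4f genes hydroxylate leukotrienes and other long-chain fatty acids at their far end. Cyp4f13 was at 16.6 and 15.5 FPKM, Cyp4f16 at 8.34 and 7.92, Cyp4f15 at 1.94 and 1.95, and Cyp4f18, known from neutrophils, at 1.68 and 1.57. Cyp4f17 was at 7.94 and 8.74 FPKM, and the authors' program marked the test at this locus as failed. Cyp4f16 and Cyp4f17 shared 84.6% of their coding bases and a run of 101 identical bases, so the division of reads between them is uncertain. Cyp4v3, a widely expressed fatty acid hydroxylase, was at 14.1 and 15.6 FPKM. Of the arachidonic acid epoxygenases, Cyp2j6 was at 10.8 and 9.59 FPKM and Cyp2j9 at 4.02 and 4.63. Under 1 FPKM, Cyp4f39 was at 0.505 and 0.823 FPKM, and Cyp4a32 was at 0.698 and 0.487 FPKM. The Cyp4a32 value is uncertain, since its coding sequence was 97.2% identical to that of Cyp4a10 and shared a run of 211 bases with Cyp4a31.

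Among the 12 members that act on sterols, bile acids and steroid hormones, 4 had a mean over 1 FPKM, and all 4 were higher in miR-21-/- as deposited, whereas 1 was higher with equal sums over all loci. That gene was Cyp7b1, which hydroxylates oxysterols and inactivates steroids such as dehydroepiandrosterone. It was at 0.693 FPKM in miR-21+/+ against 1.76 in miR-21-/-, at a locus on chromosome 3 from 17971950 to 18143338. This was a log2 ratio of 1.35 that was 0.71 with 1 FPKM added to both values. Cyp27a1, the sterol 27-hydroxylase of mitochondria, was at 13.3 and 13.8 FPKM and differed by a log2 ratio of 0.06. Cyp39a1, an oxysterol hydroxylase, was at 5.96 and 6.45 FPKM, and Cyp46a1, the cholesterol 24-hydroxylase best known from neurons, at 1.04 and 1.42. The classical steroid-producing enzymes were low or listed at 0. Cyp11a1, which starts steroid synthesis by cutting the cholesterol side chain, was at 0.602 and 1.15 FPKM. Cyp17a1 was at 0.0329 and 0.0783, Cyp21a1 at 0.203 and 0.241, and Cyp19a1, the aromatase that makes oestrogens, was listed at 0 in both genotypes. Cyp7a1, the first enzyme of the classical bile acid pathway of the liver, was also listed at 0 in both, and Cyp8b1 was at 0.344 and 0.162 FPKM.

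None of the 3 vitamin D genes reached a mean of 1 FPKM. Cyp24a1, which breaks down active vitamin D and is a well known target of its receptor, was at 0.0195 FPKM in miR-21+/+ against 0.563 in miR-21-/-. Multiplied by transcript length, the miR-21+/+ value was about 3 times the most frequent low product of that column. The miR-21-/- value was about 82 times that of its own column. Since the miR-21+/+ value is so close to that low product, no fold is given. With 1 FPKM added to both values the log2 difference was 0.62. Cyp2r1, the vitamin D 25-hydroxylase, was at 0.655 and 0.565 FPKM, and Cyp27b1, which makes the active hormone, at 0.0965 and 0.117. Of the genes that break down retinoic acid, Cyp26b1 was at 1.54 and 1.69 FPKM, Cyp26a1 at 0.0817 and 0.104, and Cyp26c1 at 0.0320 and 0.0329.

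Among the members whose substrates are little known, Cyp2ab1 was lower and the others were close. Cyp2ab1 was at 1.53 FPKM in miR-21+/+ against 0.505 in miR-21-/-, a log2 ratio of -1.60, which became -0.75 with 1 FPKM added to both values. Its locus is on chromosome 16 from 20308460 to 20325483, and its annotated coding sequence of 843 bases was shorter than that of Cyp2e1, 1482 bases. This was about as large a ratio as that of Cyp2e1, at a mean level of 1.02 against 837 FPKM. Cyp20a1 was at 12.9 and 11.9 FPKM, and Cyp2s1, known from epithelia, at 1.14 and 1.45.

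Many P450 genes lie side by side in the genome, and expression within such a neighbourhood came from few of them. With neighbours at most 1 Mb apart counted together, 7 clusters held at least 4 members each. Around Cyp2d22 on chromosome 15 (mm9, 82200957 to 82624675) lay 9 members, and the next highest after it was Cyp2d26 at 0.341 FPKM. The cluster on chromosome 19 from 39081509 to 40261776 held 14 Cyp2c genes, none over 1 FPKM and 11 of them listed at 0 in both genotypes. On chromosome 5 from 146106125 to 146924859, Cyp3a57 was the 1 gene of 6 over 1 FPKM and the next highest was at 0.272. The cluster of 6 on chromosome 4 from 114781287 to 115320339 likewise had Cyp4b1 alone over 1 FPKM, with Cyp4a32 next at 0.698. A second cluster on that chromosome, from 95709351 to 96330810, held 7 Cyp2j genes, of which Cyp2j6 and Cyp2j9 were over 1 FPKM. On chromosome 7 from 26587482 to 27951821, Cyp2f2 and Cyp2s1 were over 1 FPKM among 13 members. The Cyp4f cluster on chromosome 17, from 32589668 to 33084339, had the most genes over 1 FPKM, 4 of 7. In each of the 6 clusters with a gene over 1 FPKM, the gene with the highest level was the same in both genotypes.

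**Figure D3:**
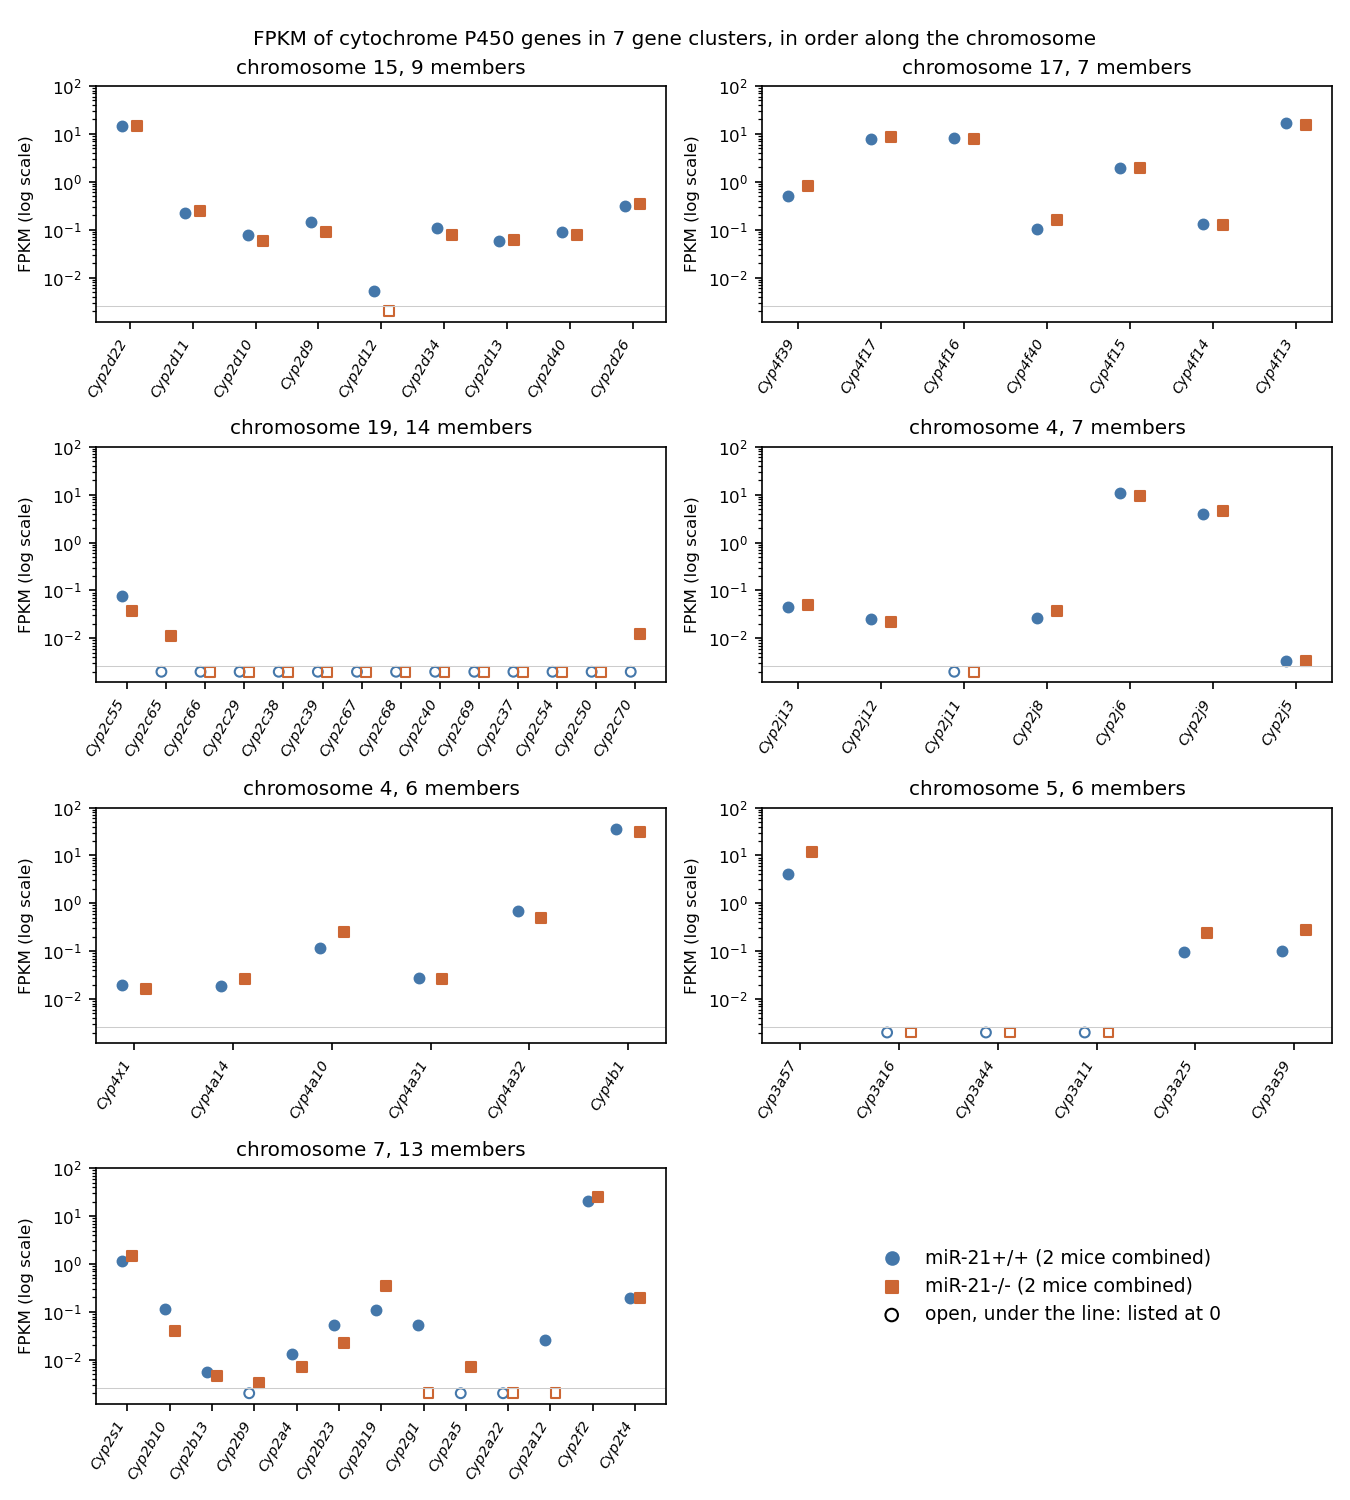
FPKM (log axis) of each cytochrome P450 gene in 7 gene clusters, in order along the chromosome, in miR-21+/+ (circles) and miR-21-/- (squares), 2 mice combined in each, with open symbols under the grey line for values listed at 0. A single gene stands above the rest in the clusters of Cyp2d22, Cyp4b1 and Cyp3a57, whereas 4 of the 7 genes of the Cyp4f cluster exceed 1 FPKM and none of the 14 of the Cyp2c cluster does.

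The mature miR-21, mmu-miR-21a-5p in RefSeq, is shown because its removal defines the genotypes, with its seed (bases 2 to 8) in capitals.
mmu-miR-21a-5p: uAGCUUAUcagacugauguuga
RefSeq places these 22 bases at chr11:86584120-86584141 on the minus strand of GRCm38.p6, a later build than that of the table. The letters that pair with the seed, ATAAGCT on the transcript strand, were looked for in the annotated 3′ UTRs of mm9. They occurred in none of the 22 members over 1 FPKM with an annotated 3′ UTR, which include Cyp2e1, Cyp3a57, Cyp7b1, Cyp2ab1 and Cyp1b1, against 6.96% of 12835 named genes at that level. The absence says only that these letters are not in those windows.

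Genes for electron donors and haem, which serve P450 enzymes, were mostly slightly lower in miR-21-/-. Of 13 measured, 12 were lower as deposited, 9 with equal sums over named loci and all 13 over all loci, with a deposited median log2 ratio of -0.21 beside -0.03 over all named genes, and 1 was at least 2-fold lower. Por, the common electron donor, was at 135 FPKM in miR-21+/+ against 107 in miR-21-/-, and Cyb5b, the cytochrome b5 of the outer mitochondrial membrane, at 61.7 and 42.4. Alas1, which starts haem synthesis, was at 52.2 and 45.4 FPKM, and Hmox1, which breaks haem down, was at 33.3 and 37.7 the 1 gene higher as deposited. The gene past 2-fold was Alas2, the red blood cell form of the first enzyme of haem synthesis, at 9.60 and 3.40 FPKM.

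Of 16 xenobiotic sensors and their partners or targets, 10 were over 1 FPKM, 4 higher and 6 lower as deposited and the reverse with equal sums over named loci. The median log2 ratio was -0.04 as deposited. With equal sums over all loci all 10 would be lower, with a median of -0.67, beside -0.66 over all named genes. Ahr, the aryl hydrocarbon receptor to which Cyp1a1 and Cyp1b1 are known to respond, was at 5.10 FPKM in miR-21+/+ against 7.81 in miR-21-/-. Of other known targets of that receptor, Tiparp was at 10.5 and 10.8 FPKM and Nqo1 at 4.69 and 4.02. The part of the receptor in the Cyp1a1 and Cyp1b1 differences was not tested. Ppara, the fatty acid sensor, was at 7.73 and 3.58 FPKM, a log2 ratio of -1.11, at a locus the authors' program marked as failed. The liver sensors Nr1i2 and Nr1i3 did not exceed 0.117 FPKM. Other drug-metabolising enzymes and transporters were on balance lower. With the Ugt1a genes, which share a locus, counted once, 11 of 16 loci over 1 FPKM were lower as deposited and 9 with equal sums over named loci. None of them was past 2-fold in either setting. Their deposited median was -0.23, beside -0.03 over all named genes, of which 55.6% were lower. With equal sums over all loci, all 16 would be lower, 6 of them by at least 2-fold. Their median would be -0.86, beside -0.66 over all named genes. Ces1d, a carboxylesterase abundant in fat, was at 339 and 233 FPKM, Sult1a1, a sulphotransferase, at 91.7 and 58.0, and Ephx1, the microsomal epoxide hydrolase, at 41.2 and 36.8.

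Of the 15 genes for fatty acid and eicosanoid oxygenation over 1 FPKM, 8 were higher and 7 lower as deposited, 9 and 6 with equal sums over named loci and 1 and 14 over all loci. The median log2 ratio was 0.00 as deposited and -0.63 with equal sums over all loci, beside -0.03 and -0.66 over all named genes. At least 2-fold lower as deposited were Ephx2, the soluble hydrolase of the epoxides that Cyp2j enzymes make, at 165 and 82.3 FPKM, and Ptgds, a prostaglandin D synthase, at 1.46 and 0.552. In the retinoid list 12 of 18 genes were higher as deposited, 13 with equal sums over named loci and 2 over all loci, with a deposited median of 0.17. Crabp2, which carries retinoic acid to the nucleus, was past 2-fold at 2.98 and 6.21 FPKM. Of 19 steroid and sterol genes 15 were lower as deposited, 11 with equal sums over named loci and 16 over all loci, with a deposited median of -0.11. The progesterone receptor gene Pgr was the 1 gene past 2-fold, at 4.71 and 23.3 FPKM, whereas Hsd11b1, which regenerates active glucocorticoid, was at 34.0 and 24.2. Of 12 vitamin D genes 3 were over 1 FPKM, 1 higher and 2 lower, with a median of -0.21. The lower genes were Pth1r, a parathyroid hormone receptor, at 21.5 and 15.4 FPKM, and Dhcr7, which uses up the precursor of vitamin D, at 6.76 and 5.85. Vdr, the vitamin D receptor, was at 4.07 FPKM in miR-21+/+ against 8.79 in miR-21-/-, a log2 ratio of 1.11. Under 1 FPKM, S100g, a calcium-binding protein gene known to respond to vitamin D, was at 0.403 and 0.195 FPKM, and Trpv6, a calcium channel gene of the same kind, at 0.374 and 0.778.

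**Figure D4:**
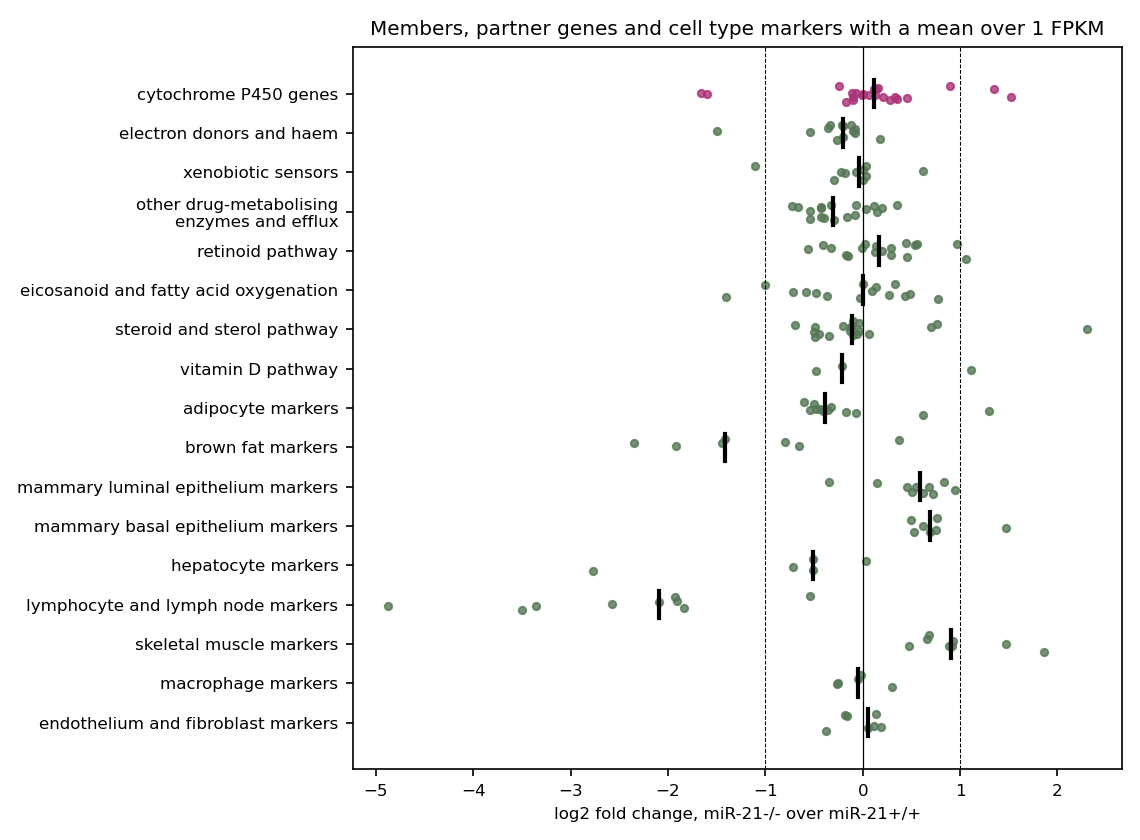
Log2 ratio of miR-21-/- over miR-21+/+ for each gene with a mean over 1 FPKM among the cytochrome P450 genes (purple), 7 lists of partner genes and 9 lists of cell type markers (green), names that share a locus being drawn separately, with the median of each list as a black bar and dashed lines at 2-fold. The P450 median is 0.11, the brown fat median -1.41, the lymphocyte and lymph node median -2.09 and the skeletal muscle median 0.90.

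The cellular make-up of the samples was read from marker lists. Luminal and basal epithelium markers, which define the labelled tissue, were present in both genotypes, with Krt8 at 119 FPKM in miR-21+/+ against 197 in miR-21-/-. Of the luminal markers 9 of 10 were higher as deposited, with a median log2 ratio of 0.58 that became -0.05 with equal sums over all loci. All 7 basal markers were higher as deposited, with a median of 0.70 that became 0.06. Over all named genes the median was -0.03 and became -0.66. Their summed levels were 759.8 and 1057 FPKM for the luminal list and 336.5 and 543.1 for the basal list. Oxtr, the oxytocin receptor, was the 1 epithelial marker past 2-fold, at 17.5 and 48.7 FPKM. Of the brown fat markers Ucp1, the uncoupling protein, was at 43.3 and 8.48 FPKM, and Cidea at 52.3 and 19.7, and Ppargc1a and Dio2 were likewise more than 2-fold lower, Ppargc1a at a locus marked as failed by the authors' program. Lep, the hormone of white fat, was the 1 adipocyte marker past 2-fold, at 27.7 and 67.9 FPKM.

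Lymphocyte and lymph node markers had the lowest median of the marker lists. All 9 were lower in miR-21-/-, 8 of them by more than 2-fold, with a median log2 ratio of -2.09 and summed levels of 252.3 and 62.9 FPKM. The 8 were Glycam1, Cd79b, Cxcl13, Cd3e, Cd4, Ms4a1, Cd3d and Cr2, the lowest ratio being -4.88 for Glycam1. All 8 skeletal muscle markers were higher as deposited and 7 with equal sums over all loci, with a median of 0.90 and summed levels of 1084 and 1813 FPKM, and Myh1 and Mb were past 2-fold. Macrophage markers had a deposited median of -0.04 (0.05 with equal sums over named loci and -0.68 over all loci). Endothelium and fibroblast markers had one of 0.05 (-0.58 with equal sums over all loci). Over all named genes the median was -0.03 as deposited and -0.66 with equal sums over all loci. The part of these cell types in the differences of Cyp1b1, Cyp2ab1, Cyp3a57 and Cyp7b1 was not tested.

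The table held 30506 loci, 8023 of them without a gene name. The miR-21+/+ column added up to 759295 FPKM over all loci and 380567 over named loci, and the miR-21-/- column to 1175603 and 355385, from which the shifts of -0.63 and 0.10 follow. The depth of the libraries is unknown. Low values times transcript length were most frequent at 0.020 to 0.021 in miR-21+/+ and at 0.024 to 0.025 in miR-21-/-. Smaller products also occurred and further steps were not clean, so the worth of 1 fragment is not known and reads were not recovered. The host locus of the microRNA, Mir21 with Vmp1 on chromosome 11, was at 42.5 and 68.2 FPKM. Poly(A) RNA does not hold the mature microRNA, so this value does not check the genotype labels.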

How the data were processed

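Mammary glands of 2 miR-21+/+ mice and 2 miR-21-/- mice were used by the authors, who purified poly(A) RNA, prepared TruSeq libraries, sequenced single-end reads on a HiSeq 2000, aligned them to mm9 with TopHat, and estimated expression with Cufflinks and Cuffdiff. CASAVA is also named in the submitters' processing notes. Versions, gene annotation, read length and normalization options were not given in the sources used here. The deposited table gives FPKM values, 1 for each genotype with its 2 mice combined. Its columns of the authors' own comparison (log2 ratio, test statistic, p-value, q-value and call) were not used. The status column was used to name loci marked as failed and, in an alternative setting, to leave them out.

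From the FPKM values a log2 ratio of miR-21-/- over miR-21+/+ was computed with no pseudocount. A member had the highest-mean row of its name, and a difference was counted at 2-fold or more among genes with a mean over 1 FPKM and above 0 in both genotypes. No p-value was computed. Every member with a mean over 1 FPKM, and those over 0.5 FPKM in either genotype, were named. Partner genes and markers named were among the highest of each list or past 2-fold, or were named because a member's description turned on them. The other low members named, such as the Cyp3a, Cyp2c and steroid genes, were chosen after their values were seen. The name rule for the members, the 16 gene lists and the thresholds were set with earlier results of these data known. The locus starts of the table count from 0, since 7398 annotated starts matched after adding 1 and 424 as printed. Coding sequences and 3′ UTRs came from the GENCODE annotation of mm9, the microRNA from RefSeq. Gene lists hold some merged loci, which carry several names: Ugt1a1, Ugt1a6a and Ugt1a7c share 1 value, as do Serpina1a and Serpina1c, and Krt14, Cd79a, Cd68, Pnpla2, Aldh1a1, Nr1h3, Fdx1l and Hsd3b7 share theirs with neighbours. Such values are uncertain. Cyb5a, Sts and Ccl21a were not analysed here. A gene of these lists is not reported here. The scripts were tested on simulated data. Python 3.11.15, numpy 2.4.6, pandas 2.3.3, biopython 1.88, samtools 1.23.1 and matplotlib 3.10.9 were used.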

Additional observations from a re-analysis of the deposited data

How the results depend on the processing

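The values combine the mice of a genotype, so no error between mice is known, and the calls rest on single ratios. The main counts were 2 members at least 2-fold higher and 2 at least 2-fold lower in miR-21-/-. They became 1 and 1 with genes over 5 FPKM in either genotype, with a mean over 5 FPKM, with over 1 FPKM in both genotypes, and with a pseudocount of 1. With no FPKM minimum they became 9 and 6 of 65 members, most of them low. The share of all named genes past 2-fold each way was computed only on the deposited scale. It was computed for a mean over 1 FPKM and for over 5 FPKM in either genotype. The counts at the other settings of level, scaling, pseudocount or fold limit cannot be set beside such a share. With equal sums over all loci none was 2-fold higher, the count of lower members stayed at 2, and the median log2 ratio of the members went from 0.11 to -0.52. With a fold limit of 3 none was higher. Other FPKM minimums change which genes enter the count, scaling shifts all ratios alike, a pseudocount shrinks the ratios of low genes, and a higher limit asks for a larger ratio. With a fold limit of 1.5 they were 3 and 2, and 89.3% of all named genes stayed under that limit. With equal sums over named loci, the median of all named genes set to 0, a pseudocount of 0.1, rows of a name added up or single-name rows, the counts were again 2 and 2 and the median moved by less than 1.5-fold as a ratio. The same held when loci marked as failed were left out, an alternative chosen after seeing the data. Counting loci shared by names of a list once, also chosen after seeing the data, changed 2 medians. They were -0.23 for the other drug-metabolising enzymes and transporters and -0.61 for hepatocyte markers, against -0.31 and -0.51 by name. Of 29 named members, a pseudocount of 1 moved 3 (Cyp7b1, Cyp2ab1 and Cyp24a1) by over 1.5-fold. No paired analysis was possible because each genotype has 1 value, so the fit with a replicate block and the values without each mouse in turn were not run.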

Other observations

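Among names that begin with Cyp but fall outside the choice of members, Cyp51, which removes a methyl group from lanosterol in cholesterol synthesis, was at 5.75 FPKM in miR-21+/+ against 4.10 in miR-21-/-, a log2 ratio of -0.49. In the pairs of levels that follow, miR-21+/+ comes first. The others, pseudogenes and genes whose names end in a letter, were all at or under 0.206 FPKM. Cyp4f41-ps, next to the Cyp4f genes on chromosome 17, was at 0.206 and 0.165 FPKM and Cyp2d37-ps, within the Cyp2d cluster on chromosome 15, at 0.178 and 0.179. Cyp4a12a and Cyp4a12b were listed at 0 in miR-21+/+ and under 0.005 FPKM in miR-21-/-, and Cyp3a41a and Cyp3a41b at 0 in both.

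Several low members showed ratios past 2-fold that the counts left out for their level. Cyp2b19, known from the skin, was at 0.111 and 0.35 FPKM, and Cyp4a10, a target of Ppara in liver, at 0.116 and 0.248. Cyp8b1 went the other way, at 0.344 and 0.162 FPKM, as did Cyp2b10, a target of Nr1i3 in liver, at 0.115 and 0.0394. The Cyp2b10 ratio rests on a miR-21-/- value near 0 and is uncertain. The Cyp4a10 value is uncertain, since its coding sequence was 97.2% identical to that of Cyp4a32, which was lower in miR-21-/-.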
